A study of Homo sapiens with 11 samples.

Results

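The 9 crystallin genes CRYAA, CRYAB, CRYBA1, CRYBA2, CRYBA4, CRYBB1, CRYBB2, CRYBB3 and CRYGC were followed by day and by well in the RNA of cultured human cardiomyocytes. They were taken by name from the 19990 genes of the count table, and they were chosen by how their levels changed between days in these same wells. Their differences between days are therefore given as descriptions, without tests. The cells were derived from the WTC11 line of human induced pluripotent stem cells, an established line used at passage 63. All wells came from 1 differentiation, directed with CHIR99021 (a GSK3 inhibitor) and then IWP2 (an inhibitor of Wnt secretion), and were kept in B27 medium with insulin. Poly(A) RNA was sequenced for Day 30 (4 wells), Day 60 (3 wells) and Day 113 (4 wells). Because wells of a single differentiation were the replicates, p-values measure only the spread between these wells, which may be technical. Each day was collected once, so day of culture and collection cannot be told apart.

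Crystallins are the abundant soluble proteins of the eye lens. The alpha crystallins CRYAA and CRYAB belong to the small heat shock proteins, chaperones that hold unfolding proteins in solution. CRYAA is largely a lens protein, whereas CRYAB is also abundant in heart and skeletal muscle, where it protects desmin filaments and sarcomeric proteins. The beta crystallins (CRYBA1, CRYBA2, CRYBA4, CRYBB1, CRYBB2 and CRYBB3) and gamma crystallins (here CRYGC) form another family, built of Greek key folds, and fill lens fibre cells as structural proteins.

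In the annotation (GENCODE v29, GRCh38), CRYAA lies on chromosome 21 (43169008 to 43172805, plus strand) and CRYAB on chromosome 11 (111908565 to 111923722, minus strand). Several of the beta and gamma genes lie close together. On chromosome 22, CRYBB3 (25199850 to 25207363) and CRYBB2 (25219522 to 25231869) lie on the plus strand, 12158 bases apart. CRYBB1 (26599278 to 26618088, minus strand) and CRYBA4 (26621964 to 26630672, plus strand) are transcribed away from each other and are 3875 bases apart. CRYBA1 lies on chromosome 17 (29246863 to 29254494, plus strand). Chromosome 2 carries CRYBA2 (218990189 to 218993421, minus strand) and CRYGC (208128137 to 208129830, minus strand).

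Promoter sequences are shown because the genes without CRYAB had the same order of wells at Day 60, described next. Large MAF factors, which regulate crystallin genes in the lens, bind a response element with the half-site TGCTGA. RefSeq (GRCh38.p14) gave a promoter entry for 8 of the 9 genes, without one for CRYAB. TGCTGA or its reverse complement TCAGCA, searched on both strands, occurred in the 250 bases before the start of 7 of the 8, at 64 to 190 bases before it. Of the 27305 genes in the promoter table, 14.1% had a match in the same window. CRYGC had no match there. Other lens genes with the same order of wells, described below, were searched too. MIP, LIM2 and CRYGD had no match, and CRYGS and CRYGA had 1 each, at 206 and 208 bases before the start. Binding of MAF factors was not tested. A heat shock element, GAANNTTC (N, any base), was the other motif searched. It occurred in 0 of the 8 and in 5.85% of the genes in the table. A match is a description of the sequence, and motifs and window were chosen with results of these wells known. The sequences below are 150 bases long, run 5′ to 3′ on the gene's strand and end 10 bases before the start, with the half-site in capitals.
CRYAA: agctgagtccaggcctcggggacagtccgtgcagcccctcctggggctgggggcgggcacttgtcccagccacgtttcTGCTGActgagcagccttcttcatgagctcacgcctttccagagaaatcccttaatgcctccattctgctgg
CRYBA1: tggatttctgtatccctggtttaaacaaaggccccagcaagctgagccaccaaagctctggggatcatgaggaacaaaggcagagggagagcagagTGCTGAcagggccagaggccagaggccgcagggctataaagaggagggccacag
CRYBA4: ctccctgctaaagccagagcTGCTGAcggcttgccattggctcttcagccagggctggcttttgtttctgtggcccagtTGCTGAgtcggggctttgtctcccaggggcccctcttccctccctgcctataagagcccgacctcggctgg
CRYBB3: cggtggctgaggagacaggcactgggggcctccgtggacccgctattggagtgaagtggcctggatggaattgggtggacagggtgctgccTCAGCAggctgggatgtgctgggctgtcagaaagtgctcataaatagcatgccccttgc
CRYGC: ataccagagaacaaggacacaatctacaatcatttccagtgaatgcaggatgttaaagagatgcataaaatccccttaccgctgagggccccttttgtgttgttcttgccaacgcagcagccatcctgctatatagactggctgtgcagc
These windows lie at chr21:43168848-43168997 (CRYAA), chr17:29246699-29246848 (CRYBA1), chr22:26621803-26621952 (CRYBA4), chr22:25199698-25199847 (CRYBB3) and, on the minus strand, chr2:208129839-208129988 (CRYGC).

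Libraries held 24.1 to 34.5 M counts (M, units of 1000000), and levels are given as counts per 1000000 counts (CPM) after scaling for library composition. Sampling noise was exceeded between all wells of any day, so each well was taken as a sample. The labelled cell type was present in every well: the 6 cardiomyocyte markers TNNT2, ACTN2, MYH6, MYH7, TNNI1 and NKX2-5 summed to 19292 to 28870 CPM. Of these, TNNT2 (cardiac troponin T) stood at 5816 CPM in Day 113 well 2 against 3681 to 3985 CPM in the other wells of that day.

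Lens crystallin RNA was close to absent at Day 30, was high in all 3 wells at Day 60, and at Day 113 was high in 1 well. Summed over the 8 genes other than CRYAB, it stood at 1.11, 1.07, 2.67 and 1.65 CPM in Day 30 wells 1 to 4. At Day 60 the sum was 93.8, 722 and 302.5 CPM in wells 1 to 3. At Day 113 it was 9.24, 139 and 3.77 CPM in wells 1 to 3 and 11.3 CPM in well 4. Day 113 well 2 lay above Day 60 well 1, so these days overlapped in the sum, and the sums at Day 30 and Day 60 did not overlap.

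**Figure D1:**
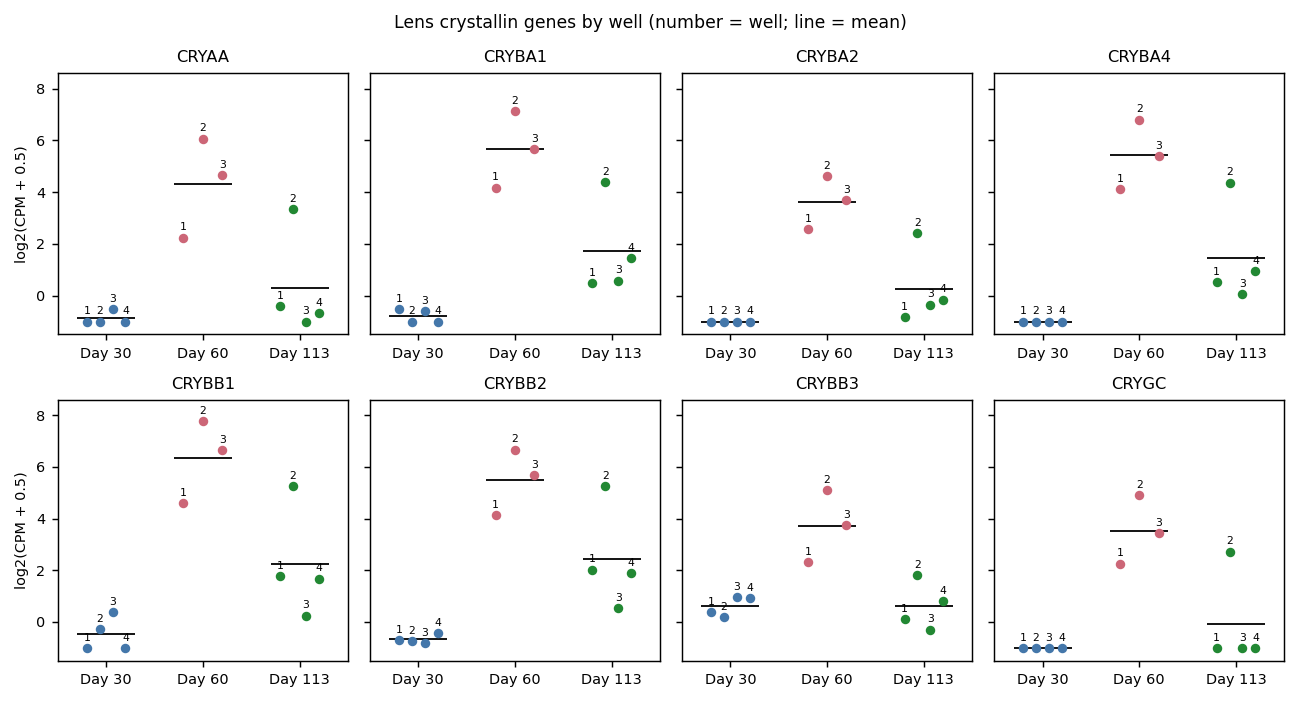
Level of each of the 8 lens crystallin genes in every well, as log2(CPM + 0.5), by day of culture. Points are wells with their number, and lines are means of the plotted values. Day 60 wells lie above Day 30 wells in every panel, well 2 is the highest at Day 60 and at Day 113, and several Day 30 wells are at 0 counts (lowest plotted value).

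CRYAA, the lens alpha crystallin, was at 0 in 3 Day 30 wells and at 0.20 CPM in well 3. It stood at 4.24, 66.6 and 24.9 CPM in Day 60 wells 1 to 3, and at 0.26, 9.64, 0 and 0.12 CPM in Day 113 wells 1 to 4. Its mean was 31.9 ± 31.8 CPM (SD, n = 3) at Day 60 and 2.504 ± 4.76 CPM (SD, n = 4) at Day 113, so the spread between wells was as large as the mean on both days. The table also holds CRYAA2, annotated elsewhere on chromosome 21 as a near-identical copy. Its values followed the same wells, at 4.82, 61.3 and 24.4 CPM at Day 60. Whether CRYAA2 is a separate gene was not tested. How reads were divided between the copies is uncertain. With both summed, the fitted difference between Day 60 and Day 30 was 8.46 on the log2 scale, against 9.16 for CRYAA alone.

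The acidic beta crystallins were near 0 at Day 30. CRYBA1 stood at 0.19, 0, 0.16 and 0 CPM at Day 30, at 17.6, 139 and 50.2 CPM at Day 60, and at 0.89, 20.5, 1.00 and 2.25 CPM at Day 113. CRYBA4 had 0 counts in all Day 30 wells, 16.8, 112 and 42.0 CPM at Day 60, and 0.92, 20.1, 0.54 and 1.44 CPM at Day 113. For both genes Day 113 well 2 was above Day 60 well 1, and the other Day 113 wells were below every Day 60 well. CRYBA2 also had 0 counts at Day 30. It stood at 5.49, 24.03 and 12.6 CPM at Day 60 and at 0.06, 4.80, 0.29 and 0.40 CPM at Day 113, without overlap between those days.

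Set against a floor of 3 counts in each Day 30 library, the limit that a count of 0 allows for counting error, mean Day 60 levels were at least 546-fold higher for CRYBA4 and at least 135-fold higher for CRYBA2. CRYBA1 had counts at Day 30, and its ratio of means was 776.

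The basic beta crystallins followed the same wells. CRYBB1 stood at 0, 0.33, 0.79 and 0 CPM at Day 30, at 23.8, 216 and 99.05 CPM at Day 60, and at 2.94, 37.6, 0.68 and 2.69 CPM at Day 113. CRYBB2 stood at 0.11, 0.10, 0.07 and 0.24 CPM at Day 30, at 17.1, 101 and 50.5 CPM at Day 60, and at 3.58, 37.6, 0.94 and 3.17 CPM at Day 113. In both, Day 113 well 2 again lay above Day 60 well 1. Reads of CRYBB2 could be shared with its pseudogene CRYBB2P1, which stood at 6.78 to 10.7 CPM in every well and passed the test in none of the comparisons of days. CRYBB3 had counts in every Day 30 well, at 0.80, 0.63, 1.45 and 1.41 CPM, and stood at 4.50, 33.8 and 13.0 CPM at Day 60. At Day 113 it was at 0.58, 3.00, 0.31 and 1.24 CPM, below every Day 60 well and overlapping the Day 30 wells.

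CRYGC, the gamma crystallin, had 0 counts in every Day 30 well and stood at 4.28, 29.1 and 10.3 CPM at Day 60, at least 140-fold above the floor. At Day 113 it was at 6.07 CPM in well 2 and at 0 counts in the other 3 wells. Any level of CRYGC at Day 113 therefore rests on 1 well, and without it the fitted difference from Day 30 was 0.

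CRYAB, the member known from heart muscle, differed from the other 8 in level and in its spread between wells. It stood at 343, 348, 265 and 329 CPM at Day 30, at 705, 713 and 699.7 CPM at Day 60, and at 713, 1006, 839 and 724 CPM at Day 113. Like the lens genes it was highest in well 2 on both later days, although the Day 60 wells were close together and their order was 2, 1, 3. No Day 30 well reached a Day 60 or Day 113 well, and the lowest Day 113 well lay within the Day 60 range. The mean was 321 ± 38.2 CPM (SD, n = 4) at Day 30, 706 ± 6.88 CPM (SD, n = 3) at Day 60 and 821 ± 136 CPM (SD, n = 4) at Day 113, or 2.20 times the Day 30 mean at Day 60 and 2.55 times at Day 113. Exons of CRYAB overlap the gene HSPB2 on the opposite strand, and whether counting used strand was not stated, so counts of both are uncertain. HSPB2, at 4.02 to 13.9 CPM, was a small fraction of CRYAB in every well.

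Levels of different genes were compared per kilobase of exon. At Day 60, mean CPM per kilobase was 233 for CRYAB, 93.2 for CRYBB1, 86.9 for CRYBA1, 70.04 for CRYBA4, 63.5 for CRYBB2, 23.2 for CRYGC, 19.7 for CRYBB3, 17.5 for CRYAA and 9.64 for CRYBA2. Within the 8 lens genes the coefficient of variation between Day 60 wells was 66.7% to 99.5%, and for CRYAB it was 0.974%. Because the 8 genes shared their order of wells, neighbours in this order were also compared within each Day 60 well. Of the 8 neighbouring pairs, 5 kept their order in all 3 wells: CRYAB above CRYBB1, CRYBA1 above CRYBA4, CRYBB2 above CRYGC (2.46 to 3.49 times), CRYGC above CRYBB3 and CRYBB3 above CRYAA. The other 3 changed order in 1 well: CRYBB1 and CRYBA1 in well 1, CRYBA4 and CRYBB2 in well 3, and CRYAA and CRYBA2 in well 1. The place of CRYAA is uncertain. CRYAA2 was left out, although it stood at 18.2 CPM per kilobase at Day 60 and the division of reads between the copies is uncertain.

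The number of genes called by the edgeR test at an adjusted p under 0.05 gives the background for these values, and since the same contrasts chose the members, nothing is read from their counts. At Day 60 against Day 30, 4.39% of all genes were called higher and 5.91% lower. The members called were 9 of 9 higher and 0 lower, although limma-voom called 3 and robust dispersions 6. With the TPM values that the authors deposited, limma called none of the 9. At Day 113 against Day 60, 12.9% of genes were called higher and 11.1% lower, and 0 members were called higher and 7 lower. That count was 1 without Day 60 well 2, 4 without Day 60 well 3 and 3 without Day 113 well 4, and DESeq2 gave 2. At Day 113 against Day 30, 17.3% of genes were called higher and 17.2% lower, and 8 members were called higher and 0 lower. CRYBB3 was the member outside, and the count was 6 without Day 113 well 2 or any 1 of the Day 30 wells, while limma-voom gave 1. The change after Day 60 was called below the change before it for 4.38% of genes and for 9 of 9 members. That count was 5 under limma-voom (without CRYAA, CRYBA1, CRYBB1 and CRYBB2), 7 with robust dispersions (without CRYBA4 and CRYGC) and 8 without any 1 of the Day 60 wells, where CRYAB was not called. Wells at Day 60 lay wholly above Day 30 in 10.7% of genes and in 9 of 9 members, and Day 113 lay wholly below Day 60 in 14.4% of genes and in 2 of 9 members (CRYBA2 and CRYBB3).

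At Day 60 the 8 lens genes shared the order well 2, well 3, well 1, and each was highest in well 2 at Day 113. The same order held in 5.53% of all genes. The level in Day 60 well 2 was 4.38 times (CRYBA2) to 15.7 times (CRYAA) that in well 1, and for CRYAB it was 1.01 times. The summed counts of the 8 genes were 2938 in Day 60 well 1 and 19590 in well 2, so counting error is small beside these ratios. Fewer cells of a type and less RNA per cell cannot be told apart in such bulk samples.

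Shares of the 8 genes in their sum were compared in the wells where the sum was high. CRYBB1 made up 25.4%, 30.0% and 32.7% of the sum in Day 60 wells 1 to 3 and 27.0% in Day 113 well 2. CRYBB2 made up 18.2%, 14.0% and 16.7% at Day 60 and 27.0% in Day 113 well 2, above each Day 60 well. CRYBB3 was lower there, at 2.15% against 4.31% to 4.80%. The Day 60 wells also differed among themselves. CRYAA made up 4.53%, 9.23% and 8.24% in Day 60 wells 1 to 3 and 6.91% in Day 113 well 2, whereas CRYBA2 made up 5.85%, 3.33% and 4.15%, and 3.44%. Reads counted for CRYAA2 are not in the sum, so the share of CRYAA is uncertain. With 1 such well at Day 113, these differences have no replicate check.

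**Figure D2:**
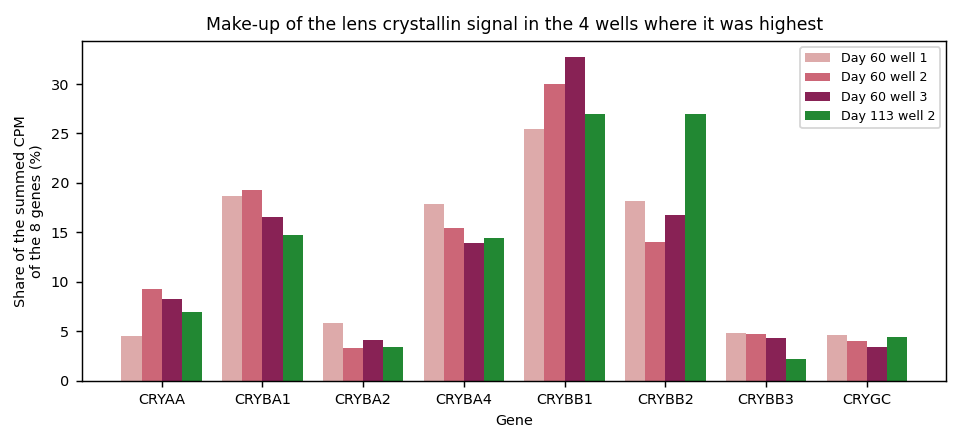
Share of each lens crystallin gene in the summed CPM of the 8 genes, in percent, for the 3 Day 60 wells and Day 113 well 2; each bar is 1 well. CRYBB1 is the largest share in Day 60 wells 1 to 3, and in Day 113 well 2 CRYBB1 and CRYBB2 are equal at 27.0%.

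Crystallin genes that were not chosen as members were tested. Of the 8 other genes of the beta and gamma family listed, 7 were measured, and 3 rose and 1 fell between Day 30 and Day 60. CRYGS (gamma S crystallin) rose by 5.66 ± 0.95 (SE) on the log2 scale (adjusted p = 0.0012), from 0.23 to 0.89 CPM across the Day 30 wells to 6.00, 40.4 and 18.5 CPM in Day 60 wells 1 to 3. CRYGD and CRYGA, neighbours of CRYGC, had 0 counts at Day 30 and reached 0.51, 6.12 and 1.92 CPM and 0.54, 1.51 and 0.82 CPM in the same wells (adjusted p = 0.027 and 0.018). All 3 had the well order 2, 3, 1. The count table held no gene with under 35 counts in total or with counts in fewer than 3 wells. Outside Day 60, CRYGD and CRYGA had counts only in Day 113 well 2, so they stand in the table through Day 60. Their adjusted p-values, and their part in the 3 genes that rose, are therefore descriptions. The call of CRYGA was lost without Day 60 well 2 (adjusted p = 0.056), and that of CRYGD without Day 60 well 2 or 3 or any Day 30 well (adjusted p = 0.055 to 0.085). After Day 60, CRYGS fell by 2.81 ± 0.80 (SE) (adjusted p = 0.018; 0.13 without Day 60 well 2).

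The more distant CRYBG genes, which are not lens crystallins, did not share 1 direction. CRYBG2 fell from 0.42 to 3.57 CPM at Day 30 to at most 0.13 CPM at Day 60 (adjusted p = 0.018; 0.058 to 0.072 without Day 30 well 2 or 3 or Day 60 well 2 or 3). It had 4 counts in all at Day 60 and 0 at Day 113, so it stands in the table through Day 30. Its adjusted p-values, and its place as the 1 gene of the family that fell, are therefore descriptions. CRYBG1 rose between Day 60 and Day 113 by 1.78 ± 0.51 (SE) (adjusted p = 0.019; 0.057 to 0.067 without Day 60 well 2 or 3 or Day 113 well 1), while CRYBG3 fell by 0.75 ± 0.25 (SE) on the log2 scale (adjusted p = 0.035; 0.051 to 0.11 without any 1 of the Day 60 wells or Day 113 well 4). CRYBG3 stood at 109 to 144 CPM at Day 30, 173 to 212 CPM at Day 60 and 51.5 to 160 CPM at Day 113. Its Day 60 wells thus lay above all wells of the other days, but its difference of 0.65 from Day 30 did not pass (adjusted p = 0.11; 0.0028 without Day 113 well 2). The median log2 difference of the 7 measured genes was 0.65 for Day 60 against Day 30 and -2.22 for Day 113 against Day 60, against -0.01 and 0.00 over all genes. These medians include CRYGD, CRYGA and CRYBG2, which stand in the table through a single day. They are therefore descriptions, and no change of the family is read from them. Among 4 other genes with crystallin names, which belong neither to the alpha nor to the beta and gamma crystallins, 1 passed. CRYM, which binds thyroid hormone, stood at 1.34 to 2.04 CPM at Day 30, 4.39 to 5.43 CPM at Day 60 and 13.5 to 17.7 CPM at Day 113, without overlap (adjusted p = 2.7e-04 and 3.1e-05 for the successive intervals).

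Some markers of other cell types moved with the lens crystallins, and their part in these values was not tested. All 10 lens markers listed were in the table. GJA3 stood at 219 to 353 CPM in these cardiomyocytes. Without it, the others summed to 7.07 to 9.17 CPM at Day 30, 20.3 to 69.4 CPM at Day 60 and 9.35 to 23.1 CPM at Day 113. Not all 10 followed the lens crystallins. Mean GJA3 was 322, 300 and 236 CPM at Days 30, 60 and 113. Mean PITX3 was 1.80, 1.56 and 0.67 CPM on these days. LGSN stood at 0.30 to 1.57 CPM at Day 30 and at most 0.04 CPM at Day 60. MIP, the lens fibre water channel, and LIM2, a lens fibre membrane protein, were at 0 in 3 of the 4 Day 30 wells. MIP rose to 2.46, 15.9 and 5.84 CPM in Day 60 wells 1 to 3 (adjusted p = 0.0016) and stood at 0.14, 3.82, 0.06 and 0.40 CPM at Day 113 (adjusted p = 0.041 against Day 60). That fall was not called in 7 of the 11 fits with 1 well left out, with adjusted p up to 0.26 without Day 60 well 2. LIM2 rose to 2.04, 13.3 and 4.86 CPM (adjusted p = 0.0027). Under limma-voom, the rise by Day 60 missed the threshold for CRYGS, MIP and LIM2 (adjusted p = 0.056, 0.053 and 0.059). Among 20 listed genes of lens structure, 18 were tested, and 7 rose and 2 fell between Day 30 and Day 60, with a median log2 difference of 0.35. BFSP1, a beaded filament protein, was among those that rose (adjusted p = 0.023; 0.06 to 0.17 without Day 30 well 1, 2 or 3 or Day 60 well 2), whereas its partner BFSP2, at 0.26, 1.66 and 0.51 CPM at Day 60, did not pass (adjusted p = 0.088).

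**Figure D3:**
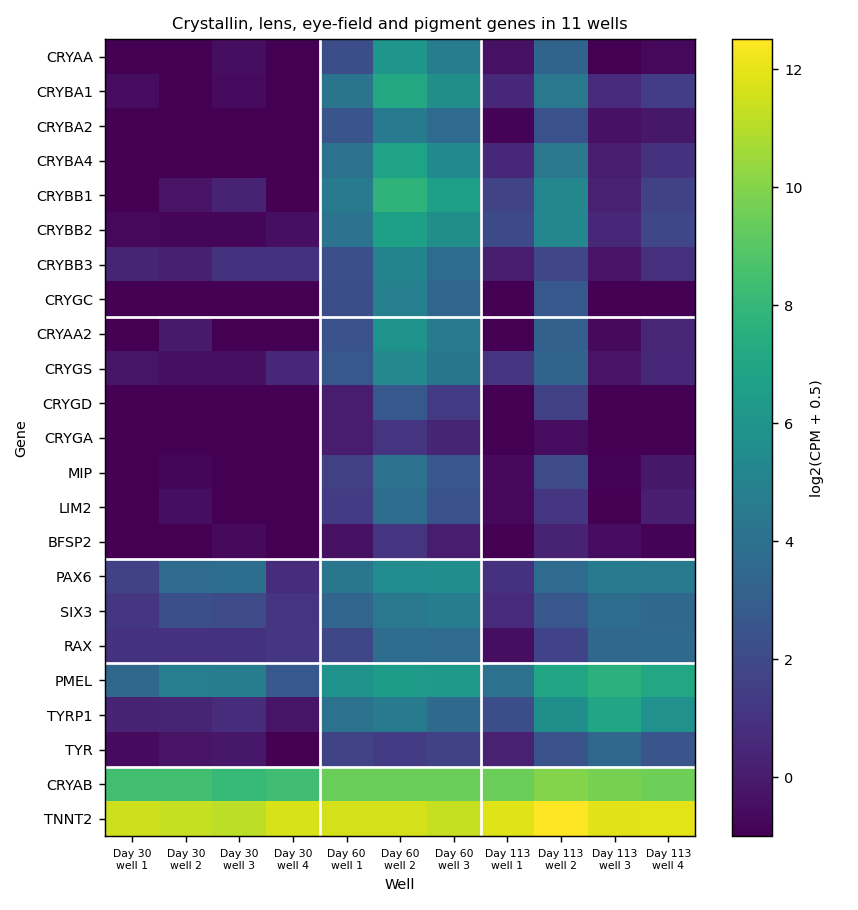
Level of 23 genes in each of the 11 wells, as log2(CPM + 0.5) in colour: from the top, lens crystallin members, other crystallin and lens genes, eye-field regulators, pigment cell genes, and CRYAB with TNNT2. Lens crystallin and lens fibre genes are brightest in Day 60 well 2 and, within Day 113, in well 2, while the pigment cell genes TYRP1 and PMEL are highest in Day 113 well 3.

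Retinal and retinal pigment epithelium genes were summed in the same way. Of 12 listed, 10 were measured, and 5 rose and 0 fell between Day 30 and Day 60, with a median log2 difference of 2.49. Under limma-voom 0 of the 10 were called higher, and the count was 2 without Day 60 well 2 or 3 and 3 without any 1 of the Day 30 wells. The 5 were TYRP1, TYR, PMEL, RAX and RPE65, with adjusted p = 0.072 (PMEL) to 0.35 (TYRP1) under limma-voom. RAX was not called in 6 of the 11 fits with 1 well left out, and PMEL and RPE65 in 4 each. Without MITF they summed to 11.1 to 33.0 CPM at Day 30, 90.4, 140 and 126 CPM in Day 60 wells 1 to 3 and 24.7, 195, 369 and 233 CPM in Day 113 wells 1 to 4. At Day 60 this is the well order of the lens crystallins (2, 3, 1). At Day 113 it differs, with well 3 highest and well 1 within the Day 30 range. TYRP1, a melanosome enzyme, rose from 0.34 to 1.12 CPM at Day 30 to 16.8, 22.3 and 11.9 CPM at Day 60 (adjusted p = 0.0012) and reached 122 CPM in Day 113 well 3, where the lens crystallin sum was the lowest of that day. PMEL, which forms melanosome fibrils, stood at 59.2, 84.1 and 77.4 CPM at Day 60, so both pigment genes were highest in well 2. At Day 113 PMEL was at 208 CPM in well 3 and 16.2 CPM in well 1. Of the eye-field regulators, SIX3 rose to 10.1, 20.5 and 25.0 CPM at Day 60 (adjusted p = 0.0076). PAX6 stood at 1.13 to 14.2 CPM at Day 30 and at 19.3, 44.9 and 48.7 CPM at Day 60, but did not pass (adjusted p = 0.062). Unlike the lens crystallins, both were highest in Day 60 well 3.

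Among 24 listed transcription factors of the lens, 23 were tested, and 3 rose and 4 fell between Day 30 and Day 60. The median log2 difference was 0.17. RXRA, TFAP2A, GATA3 and TFAP2B were lower in every Day 60 well than in any Day 30 well. How many of all genes were so was not counted, and 5.91% of all genes were called lower. Means at Day 30 and Day 60 were 60.2 and 47.3 CPM for RXRA and 12.6 and 0.74 CPM for TFAP2A. They were 11.5 and 1.21 CPM for GATA3 and 2.90 and 0.07 CPM for TFAP2B. TFAP2B had 6 counts in all at Day 60 and 5 at Day 113, so it stands in the table through Day 30. Its fall is therefore a description. The fall of RXRA was not called in 6 of the 11 fits with 1 well left out. HSF4, a heat shock factor that regulates crystallins, rose from 1.26 to 2.23 CPM at Day 30 to 5.79 to 7.19 CPM at Day 60 (adjusted p = 0.0011) and stood at 4.36 to 9.04 CPM at Day 113 (adjusted p = 0.56 against Day 60). It did not have the fall of the lens crystallins after Day 60. MEIS1 rose by 0.48 ± 0.11 (SE) between Day 30 and Day 60 (adjusted p = 0.012; 0.055 without Day 60 well 3). PROX1, which controls fibre differentiation in the lens and is also active in heart, fell by 0.64 ± 0.14 (SE) on the log2 scale between Day 60 and Day 113 (adjusted p = 0.0036).

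The other small heat shock proteins differed among themselves. Of 8 listed, 7 were measured. By Day 60, 2 had risen and 0 had fallen from Day 30. In the later interval 1 rose and 3 fell. HSPB6, a chaperone of muscle, rose by 1.20 ± 0.21 (SE) on the log2 scale by Day 60 (adjusted p = 0.0019) and stood at 13.9 to 23.1 CPM at Day 113 (adjusted p = 0.54 against Day 60). Its mean was 2.30 times the Day 30 mean at Day 60 and 2.64 times at Day 113, next to 2.20 and 2.55 times for CRYAB. HSPB7, a cardiac member, rose by 0.45 ± 0.11 (SE) (adjusted p = 0.019; 0.064 and 0.093 without Day 30 well 3 and Day 60 well 1) and then fell by 0.54 ± 0.11 (SE) (adjusted p = 0.003). HSPB8, which works with BAG3, fell by 0.71 ± 0.12 (SE) after Day 60 (adjusted p = 0.00046), and HSPB3 rose by 0.65 ± 0.15 (SE) (adjusted p = 0.0054), to 2.10 times its Day 30 mean (adjusted p = 2.4e-05 against Day 30). HSPB1 stood at 1158 to 1395 CPM at Days 30 and 60 and at 1367 to 2312 CPM at Day 113 and passed in none of the comparisons.

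Of 15 listed clients and partner chaperones of CRYAB, 14 were tested, and 3 rose and 0 fell between Day 30 and Day 60. DES (desmin), whose filaments CRYAB protects, stood at 10.6 to 13.4 CPM at Day 30, 29.8 to 37.1 CPM at Day 60 and 37.5 to 55.9 CPM at Day 113. It rose by 1.44 ± 0.15 (SE) on the log2 scale in the first interval (adjusted p = 1.8e-05). HSPA8, a constitutive chaperone, rose by 1.20 ± 0.11 (SE) after Day 60 (adjusted p = 6.4e-06), when 6 of the 14 rose and 4 fell. VIM, BAG3 and HSF1 were among those that fell, by 0.42 to 0.50 on the log2 scale, BAG3 with an adjusted p = 0.091 without Day 60 well 1.

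**Figure D4:**
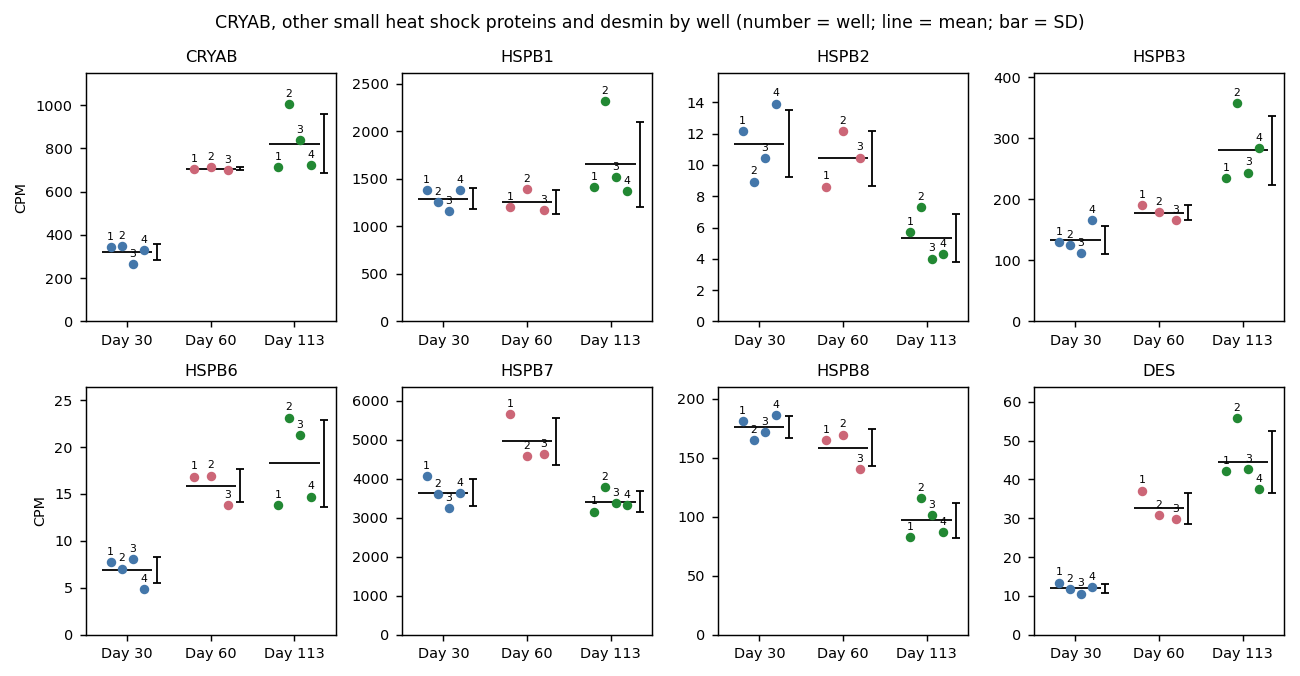
CPM of CRYAB, 6 other small heat shock proteins and desmin in every well by day; points are wells with their number, lines are means and bars are SD, and each axis starts at 0. CRYAB and DES are higher in all Day 60 and Day 113 wells than in any Day 30 well, whereas HSPB8 is lowest at Day 113.

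Over the 11 wells, the 5 genes most like the summed beta and gamma members in log2(CPM + 0.5), among 15545 genes compared, were CRYGS (r = 0.974), MIP (r = 0.973), CRYAA2 (r = 0.953), LIM2 (r = 0.952) and NT5M (r = 0.945). Those most like CRYAB were TNNI3 (r = 0.995), the adult cardiac troponin I, SQSTM1 (r = 0.985), an autophagy receptor, DES (r = 0.985), ALDOC (r = 0.982), a glycolytic enzyme, and CAV3 (r = 0.981), the muscle caveolin. The wells share day and library, so these values of r describe the wells and carry no test.

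Genes lying beside the members did not all follow them. Of 22 listed neighbours, 15 were measured, and 3 rose and 0 fell between Day 30 and Day 60. Of the 3, 2 were CRYGD and CRYGA, which stand in the table through their Day 60 counts. The count of neighbours that rose was 0 without Day 60 well 2 and 1 without Day 60 well 3 or any 1 of the Day 30 wells. At Day 113 against Day 60, 0 rose and 6 of the 15 fell, with a median log2 difference of -0.73 against 0.00 over all genes, where 11.1% were called lower. CRYGA was among the 6, and its call was lost in 6 of the 11 fits with 1 well left out. As CRYGD and CRYGA are among the 15, this count and median are descriptions. TPST2, 2560 bases from CRYBB1, stood at 13.6 to 24.4 CPM at Day 30 and 9.84 to 15.4 CPM at Day 60 (adjusted p = 0.061). NUFIP2, 1341 bases from CRYBA1, stood at 164 to 183 CPM and 162 to 191 CPM on these days (adjusted p = 0.96). HSPB2, beside CRYAB, fell by 0.97 ± 0.23 (SE) on the log2 scale between Day 60 and Day 113 (adjusted p = 0.0069), while mean CRYAB went from 706 to 821 CPM.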

How the data were processed

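The authors deposited raw whole-number counts of reads in 11 libraries, for 19990 gene symbols, without normalization. The submitters' processing notes name STAR 2.5.3a, featureCounts 2.0.3 and hg38. The annotation, strand setting and treatment of reads with several matches are not given in the sources used here. The authors also deposited TPM values, but the gene length implied by count over TPM varied 74.0-fold between wells (median over 11210 genes), so TPM served only as an alternative, as log2(TPM + 1) in limma.

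For the main test, edgeR 4.0.16 in R 4.3.3 was run on the counts (quasi-likelihood F-test) with TMM scaling (factors 0.966 to 1.04), a single fit of all 11 wells, no factor but day, and Benjamini-Hochberg adjustment over all 19990 genes at 0.05. A minimum count of 10 removed 0 genes. The SE is the log2 difference divided by the square root of F. Folds against a day with at most 3 counts in each library are bounds. Every adjusted p-value is from this test unless another tool is named. Alternatives used DESeq2 1.42.0, limma-voom (limma 3.58.1), other scalings and filters, and left-out wells. The test was also run on simulated data. The floor covers counting error only, since no molecular identifiers were used.

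The members, lists, motifs and tests were chosen with earlier results of these data known. The naming rule took all members, up to 6 genes per list that passed in any comparison, most abundant first, listed neighbours, and the 5 genes most like the members. The choice of which to print in full followed a look at the values. MIP, LIM2, BFSP1, BFSP2, LGSN, PITX3, PAX6, SIX3, HSF4, GATA3, TFAP2A, TFAP2B and HSPB1 are named from the lists outside that rule. Lists overlap (HSPB2, CRYGD and CRYGA stand in 2). Leaving out both wells 2 and summing CRYAA with CRYAA2 were alternatives added after the data were seen. Some listed genes are counted in their lists and not reported here by name.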

Additional observations from a re-analysis of the deposited data

Results flagged for a closer look

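Of 134 groups of 4 wells looked at, 22 had a well far from the others by Dixon's criterion. Chance meets this criterion in about 1 in 20 groups. The groups were most of the genes named above, at Day 30 and at Day 113. Day 60, with 3 wells, was not looked at. At Day 113, well 2 was the high well for CRYAA (9.64 CPM), CRYBA1 (20.5 CPM), CRYBA2 (4.80 CPM), CRYBA4 (20.1 CPM), CRYBB1 (37.6 CPM), CRYBB2 (37.6 CPM) and CRYGC (6.07 CPM). The same well was high for CRYAA2 (8.21 CPM), CRYGS (9.60 CPM), CRYGD (2.47 CPM), CRYGA (0.19 CPM) and MIP (3.82 CPM). It was also high for TNNT2 (5816 CPM), HSPB1 (2312 CPM) and NT5M (11.6 CPM), and low for CRYM (13.5 CPM against 17.2 to 17.7 CPM).

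At Day 30 the distant wells were at or near the limit of detection. They were CRYAA in well 3 (0.20 CPM), CRYAA2 in well 2 (0.47 CPM), MIP in well 2 (0.10 CPM), LIM2 in well 2 (0.20 CPM) and BFSP2 in well 3 (0.13 CPM), each against 0 in the other wells. RAX in well 4 stood at 1.72 CPM against 1.40 to 1.45 CPM.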

How the results depend on the processing

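Over all genes, 2060, 4790 and 6889 genes changed at Day 60 against Day 30, Day 113 against Day 60 and Day 113 against Day 30, and 1868 differed between the intervals. Leaving out 1 well at a time gave 1220 to 2618, 3317 to 4735, 5657 to 6977 and 643 to 2221. Deviations from the day mean correlated at 0.035 to 0.139 between same-numbered wells of different days. Differently numbered wells were not compared, so whether well numbers pair the wells was not tested. The fit with the replicate block gave 2474, 4954, 7143 and 2366. Counts of members called kept to 9 at Day 60 against Day 30 in every left-out fit, with 3 under limma-voom and 6 with robust dispersions. None of the 9 was called with the deposited TPM, where limma gave adjusted p = 0.36 (CRYGC) to 0.86 (CRYAB). Members called lower at Day 113 against Day 60 ranged from 1 to 8 over left-out wells, with 2 under DESeq2 and 1 with robust dispersions. Members called higher at Day 113 against Day 30 ranged from 6 to 8, with 1 under limma-voom and 3 with robust dispersions. Members whose change after Day 60 was called below the change before it numbered 8 to 9 over left-out wells, 5 under limma-voom and 7 with robust dispersions.

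Reversals were confined, among the genes and settings run, to log2 differences that did not pass the test. For Day 60 against Day 30, log2 differences over left-out wells ran from -0.2516 to 0.0166 for HSPB2, from -0.1746 to 0.03989 for MAFG, from -0.1931 to 0.02466 for EYA1, from -0.2722 to 0.06755 for SOX11, from -0.1914 to 0.02506 for MYH7, from -0.02903 to 0.2045 for CRYBB2P1, from -0.009622 to 0.08294 for NUFIP2, from -0.1272 to 0.0291 for HSPB1. For Day 113 against Day 60, log2 differences over left-out wells ran from -0.2791 to 0.05884 for TPST2. CRYAB reached -0.4018 (deposited TPM). RAX reached 0.03999 (without both wells 2). TNNI1 reached -0.1276 to 0.1152 over left-out wells, -0.002179 (RLE scaling), -0.05129 (upper-quartile scaling), -0.006139 (the stricter CPM filter), -0.002181 (DESeq2), -0.007075 (limma-voom), -0.0124 (replicate block), -0.1234 (without both wells 2). SQSTM1 reached -0.01686 to 0.0492 over left-out wells, -0.0003063 (RLE scaling), -0.05003 (upper-quartile scaling), -0.004942 (the stricter CPM filter), -0.0003117 (DESeq2), -0.02561 (without both wells 2). For Day 113 against Day 30, log2 differences over left-out wells ran from -0.1347 to 0.02008 for HSF1, from -0.1876 to 0.03732 for CRYBB2P1. CRYBB3 reached -0.6398 to 0.5629 over left-out wells, -0.3082 (limma-voom), -0.1309 (replicate block), -0.6216 (without both wells 2), -0.327 (deposited TPM). CRYBG3 reached -0.2981 to 0.1433 over left-out wells, 0.1429 (without both wells 2). EPHA2 reached -0.06978 to 0.1284 over left-out wells, -0.01988 (upper-quartile scaling), -0.001551 (limma-voom), -0.008034 (replicate block), -0.07021 (without both wells 2). BFSP1 reached -0.06645 to 0.4258 over left-out wells, -0.06746 (without both wells 2). The cause of these changes was not tested. CRYGC at Day 113 against Day 30 was 0 without Day 113 well 2, from 8.47.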
